A study of Mus musculus with 12 samples.

Results

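The loss of Rictor in mouse leukemia driven by the MLL-AF9 fusion was described across autosomal genes, outside the well-known neutrophil granule genes. The members were chosen by the sample titles: 6 of the 12 arrays of the series, 3 labelled MLL-AF9 Control and 3 labelled MLL-AF9 RictorΔ/Δ. Each gene was read from its brightest probe set, genes on chromosomes X and Y were left out, and 12214 of 18195 genes were bright enough to be tested. The other 6 arrays came from another MLL fusion, MLL-NRIP3, and entered only 1 alternative fit.

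All 6 arrays held RNA of leukemia cells carrying the MLL-AF9 fusion and taken after the first bone marrow transplantation (1st BMT), when CD45.2+ cells made up more than 50% of the white blood cells of the recipient's peripheral blood. The blood was examined from day 15 at intervals of 5 days. The sorted bone marrow cells are labelled K+G–, which the labels do not spell out, and the host tissue is given as peripheral blood. The 3 control arrays have the cell genotype Rictor wild type and the 3 deleted arrays the cell genotype Rictor deletion. The labels used here name no Cre driver and do not say which part of Rictor was removed, how long before sorting, or the age of the mice. Whether the 3 RNA samples of a group are 3 animals is not stated, so the p-values rest on the spread between samples, which may be technical. The series title gives the question as whether Rictor keeps leukemia stem cells quiescent and stem-like.

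Rictor is the scaffold protein that defines mTOR complex 2 (mTORC2). This kinase complex phosphorylates AKT, SGK and protein kinase C family members at their hydrophobic or turn motifs, and it is linked to cytoskeletal organisation, survival and glucose use. MLL-AF9 joins the DNA-binding part of MLL to a subunit of the transcription elongation machinery, and it keeps a set of stem cell genes, among them the HOXA genes and Meis1, active in myeloid progenitors.

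The 6 arrays had median intensities between 8.16 and 8.36 and correlated with each other at 0.986 or more over probe sets. Several features moved with the groups or set an array apart. Xist, the X-inactivation RNA, read 2441, 2348 and 2371 in the control arrays and 53.6, 208 and 34.3 in the deleted arrays. The Y-linked Eif2s3y read 7.81, 3.67 and 3.43 in the control arrays and 150, 149 and 186 in the deleted arrays. The control arrays thus carried RNA with high Xist and the deleted arrays RNA with Y-linked transcripts, so that genotype and sex cannot be told apart in any result below. Deleted array 2 held the highest Xist of its group. Control array 3 had the lowest 5′ to 3′ ratio for Gapdh, 0.901 against 1.01 to 1.09 in the other 5 arrays, and the highest mean log2 signal of the spiked poly-A controls, 6.92 against 4.46 to 5.13.

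The summed intensity of the mature neutrophil list, 37 genes on the array, lay between 22790 and 27247 in the control arrays and between 49673 and 54351 in the deleted arrays. The groups did not overlap, and 30 of the 37 genes were called higher and 2 lower (86.5% beside 8.27% of all genes). This and all other gene lists were chosen with earlier results of these data known. A list share above that of all genes may therefore be partly built in, here and below. The part that sex, control array 3 or the higher neutrophil signal had in the other differences was not tested. In bulk RNA, fewer cells of a type and less RNA per cell cannot be told apart.

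**Figure D1:**
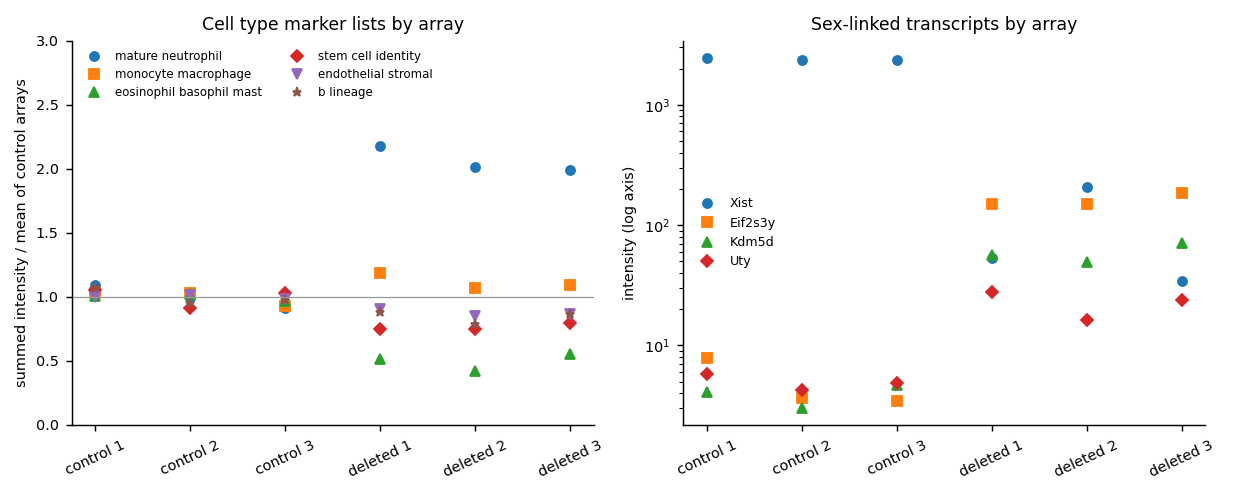
Left, summed intensities of marker lists on each array, divided by the mean of the 3 control arrays. The lists drawn are mature neutrophil, macrophage, eosinophil, stem cell, endothelial and B lineage. Right, intensities of Xist and 3 Y-linked genes on a log axis. Each point is 1 array. The mature neutrophil and macrophage sums of the 3 deleted arrays lie above all control arrays. The eosinophil, stem cell, endothelial and B lineage sums of the deleted arrays lie below all control arrays. Xist and the Y-linked genes separate the same groups.

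The targeted gene was examined first. The brightest Rictor probe set read 84.4, 92.4 and 83.7 in the control arrays and 77.9, 88.1 and 96.4 in the deleted arrays, so the groups overlapped and the mean did not differ beyond the spread (log2 change 0.01 ± 0.09 SE, limma adjusted p = 0.98). Of the other 4 Rictor probe sets, one had means of 21.9 ± 1.13 in control and 16.5 ± 2.52 in deleted arrays (SD, n = 3), a log2 difference of -0.23 with an unadjusted limma p of 0.00987 and an adjusted p of 0.106. A further one read 30.9 ± 1.84 against 25.3 ± 1.10 (log2 difference -0.18, adjusted p = 0.19). The remaining pair read at most 12.1 on any array. No Rictor probe set was called, and since the removed part of the gene is not given, a probe set outside it says nothing about the labels.

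Among the other mTORC2 subunits, Mtor, the kinase itself, read 113 ± 5.83 in control and 98.2 ± 6.97 in deleted arrays (log2 difference -0.17, limma adjusted p = 0.21). Mapkap1, the SIN1 subunit, had a log2 difference of 0.14 (adjusted p = 0.35), and Mlst8, shared with mTORC1, one of 0.08 (adjusted p = 0.60). Deptor, an inhibitor of both mTOR complexes, read 24.6, 22.1 and 18.4 in control arrays and 30.8, 35.1 and 29.1 in deleted arrays. The groups did not overlap, and Deptor was called higher by 0.34 ± 0.082 in log2 (adjusted p = 0.025). That call was lost when control array 2, control array 3, deleted array 1 or deleted array 2 was omitted, at adjusted p between 0.0547 and 0.104, and a second Deptor probe set changed by -0.02. On chromosome 15, 11 tested genes lay before Rictor, and they were taken with the 20 nearest tested genes after it, 31 in all. Of these, Amacr was called higher, Selenop and Ptger4 were called lower, and each of these calls was lost when some arrays were left out. The median log2 change of the 31 genes was -0.04. Chromosome 15 as a whole had 6.92% of its genes called, beside 8.27% of all genes.

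Rictor-deleted and control leukemia differed in 1010 of 12214 genes (limma, adjusted p under 0.05), or 8.27% of those tested. In the deleted cells 472 genes (3.86%) were higher and 538 (4.4%) lower. Leaving out the genes of the neutrophil and primary granule lists left 433 higher and 536 lower. The changes were mostly small: 91 genes changed at least 2-fold on the log2(intensity + 16) scale, 73 of them upward and 18 downward, and the median change of all genes was -0.01. At an unadjusted p under 0.05, 2680 genes (21.9%) passed, 1161 higher (9.51%) and 1519 lower (12.4%). The addition of 16 shrinks the change of dim genes. For 27.2% of all tested genes the 3 values of one group lay wholly above the other 3, and this held for 1008 of the 1010 called genes. Of the calls, 475 remained whichever 1 array was left out, 271 higher and 204 lower. Fewer calls were made without deleted array 2 (570) or without deleted array 3 (656). A fit to all 12 arrays of the series, in which both leukemias share one estimate of the spread, called 186 genes, all among the 1010, with 129 higher and 57 lower.

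The sequences 250 bases before to 50 bases after the annotated start are shown for genes that moved together among the decreases: Prg3, which encodes an eosinophil granule protein, and 2 nearby genes of the C1q complement complex. They are RefSeq sequences of mouse assembly GRCm38.p6, written 5′ to 3′ on the gene's own strand. Capitals mark, in Prg3, matches to GATAA, the core read by GATA factors, and in the C1q genes, matches to AGGAAG, an ETS-type core, on either strand. The motifs were chosen after the sequences had been seen.
Prg3, chr2:84987965-84988264, plus strand: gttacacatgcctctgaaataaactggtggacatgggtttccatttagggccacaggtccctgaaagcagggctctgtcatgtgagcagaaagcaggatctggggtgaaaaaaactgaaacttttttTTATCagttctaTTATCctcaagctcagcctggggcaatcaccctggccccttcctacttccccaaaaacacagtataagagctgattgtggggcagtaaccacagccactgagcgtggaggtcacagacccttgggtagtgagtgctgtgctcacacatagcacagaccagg
C1qb, chr4:136886151-136886450, minus strand: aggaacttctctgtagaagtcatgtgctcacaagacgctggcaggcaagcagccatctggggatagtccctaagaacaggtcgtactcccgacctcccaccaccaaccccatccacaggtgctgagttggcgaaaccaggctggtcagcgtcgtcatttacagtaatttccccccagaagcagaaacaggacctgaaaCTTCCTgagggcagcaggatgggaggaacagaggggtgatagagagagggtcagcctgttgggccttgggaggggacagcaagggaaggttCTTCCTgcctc
C1qc, chr4:136892865-136893164, minus strand: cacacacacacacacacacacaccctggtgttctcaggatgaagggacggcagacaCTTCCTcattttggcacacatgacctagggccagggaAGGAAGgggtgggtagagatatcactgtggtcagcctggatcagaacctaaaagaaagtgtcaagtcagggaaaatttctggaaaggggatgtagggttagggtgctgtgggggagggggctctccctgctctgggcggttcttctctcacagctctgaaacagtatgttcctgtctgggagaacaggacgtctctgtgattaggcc
Both GATAA matches of Prg3 lie on the opposite strand, with their first bases 123 and 111 bases before the start. GATAA was found in 25.4% of all 32851 promoters of the table, in 16.6% of those of tested genes, in 15.6% of those of genes called higher and in 18.9% of those of genes called lower. AGGAAG was found in 35.4%, 33.5%, 39.4% and 34.2% of the same sets. A match is a description of letters, and no binding was measured.

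The largest increases outside the neutrophil lists included Rps4l, Penk, Slc2a3, Actn1 and Gpr84, and no common function was tested for them. Outside the lists means only that a gene was not a list member. Whether these 15 genes are expressed by neutrophils and rose with the neutrophil signal was not tested. Rps4l, a gene named for its likeness to the X-linked ribosomal protein gene Rps4x, read 8.11, 3.77 and 5.23 in control arrays and 119, 132 and 116 in deleted arrays. All 3 deleted arrays were far above all controls, at the floor of the array (log2 change 2.67 ± 0.092, limma adjusted p = 7.23e-08), and signal shared with the near copy was not tested. Penk encodes proenkephalin, the precursor of opioid peptides. Its intensities were 168, 141 and 122 in control and 940, 760 and 728 in deleted arrays (log2 change 2.37 ± 0.11, limma adjusted p = 4.69e-07). Slc2a3, the high-affinity glucose transporter GLUT3, read 58.5, 44.3 and 46.6 in control and 327, 258 and 240 in deleted arrays (log2 change 2.14 ± 0.12). Actn1, the actin cross-linker alpha-actinin, read 79.4, 51.1 and 59.1 against 345, 340 and 274 (log2 change 2.09 ± 0.13). By the rule that chose the 15 largest increases, every deleted array exceeded every control array in each of these genes.

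Prom1, which encodes the surface protein CD133 used to mark progenitors, read 65.3, 69.8 and 53.7 in control and 283, 305 and 221 in deleted arrays (log2 change 1.85 ± 0.12, limma adjusted p = 3.65e-06). The tetraspanin Cd9 read 43.3, 25.1 and 26.8 against 148, 102 and 103 (log2 change 1.49 ± 0.16). By the same rule, both surface genes were higher in all 3 deleted arrays. Among the same 15 largest increases were Gpr84 and Ffar2. Gpr84, a receptor for medium-chain fatty acids on myeloid cells, rose by 1.98 ± 0.11 in log2 from a mean of 13.6 ± 4.2 to 100 ± 13.7, and Ffar2, a receptor for short-chain fatty acids, by 1.47 ± 0.13 from 47.7 ± 8.99 to 160 ± 29.5. Mapk13, the delta isoform of p38, rose by 1.49 ± 0.11. The secreted proteins Olfml2b (2.04), Orm1, an acute-phase protein (2.00), and Chil1, a chitinase-like protein (1.91), rose from control means at or under 10.6. So did the esterase Ces1d (1.91) and the lipase Lipg (1.78). All 15 of the largest increases remained called without any 1 array and in the fit to 12 arrays.

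**Figure D2:**
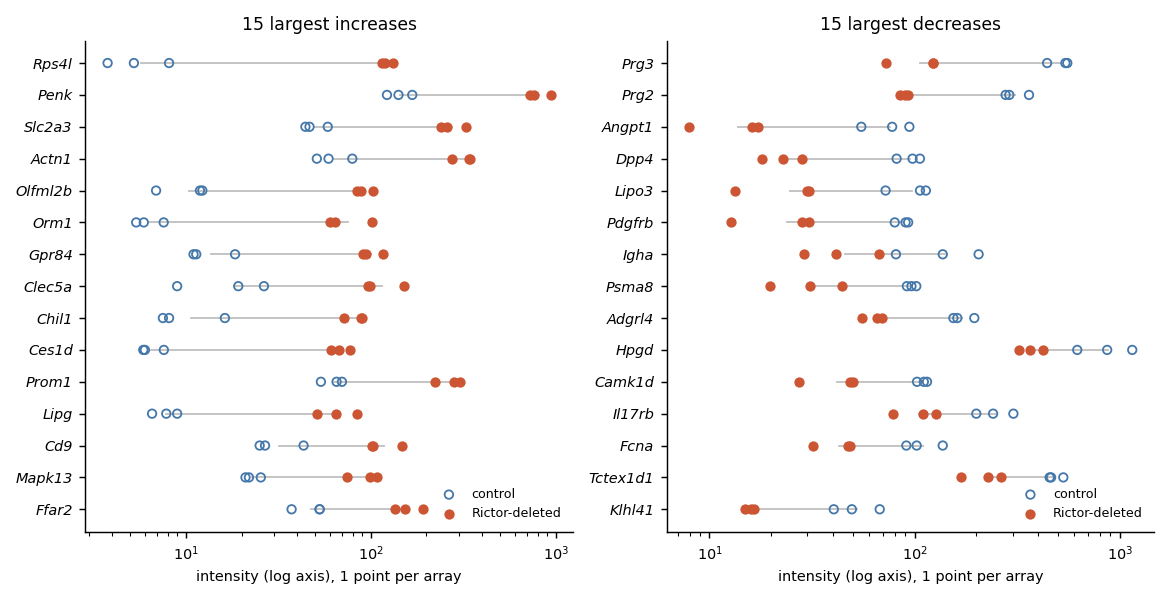
Intensities on a log axis of the 15 genes with the largest increase (left) and the 15 with the largest decrease (right), neutrophil and primary granule lists left out. Each point is 1 array, open for control and filled for Rictor-deleted, and the grey line joins the group means. By the rule that chose them, the points of the groups do not overlap.

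The largest decreases included Prg3, Prg2, Angpt1, Adgrl4, Pdgfrb and Hpgd. Prg3 and Prg2 encode the major basic proteins of eosinophil granules. Prg3 read 442, 555 and 543 in control and 123, 72.3 and 123 in deleted arrays (log2 change -2.14 ± 0.16, limma adjusted p = 1.02e-05). Prg2 read 289, 361 and 277 against 90.0, 85.0 and 93.2 (log2 change -1.62 ± 0.093). By the rule that chose them, both lay lower in every deleted array. Angpt1, the angiopoietin ligand of the receptor Tek, read 54.9, 94.2 and 77.7 in control and 16.1, 7.95 and 17.2 in deleted arrays (log2 change -1.61 ± 0.16, limma adjusted p = 9.9e-05). Its receptor Tek read at most 4.47 on any array.

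Hpgd, which inactivates prostaglandins, read 620, 1149 and 867 in control arrays, a wide range, and 420, 324 and 363 in deleted arrays, all below it (log2 change -1.18 ± 0.17, adjusted p = 0.00141). Adgrl4, an adhesion receptor best known from endothelium, read 154, 195 and 161 against 69.2, 55.6 and 65.3 (log2 change -1.23 ± 0.099). Pdgfrb, a receptor tyrosine kinase, read 93.0, 90.3 and 80.0 against 28.3, 12.8 and 30.6 (log2 change -1.41 ± 0.15). These decreases were seen beside other endothelial and stromal markers at the floor: Cdh5 read at most 7.25, Emcn at most 5.79, Col1a1 at most 7.43 and Lepr at most 7.29 on any array. Of 25 endothelial and stromal genes, 18 stayed under 16 on all arrays, and the sum of the list was 1494 to 1544 in control and 1289 to 1377 in deleted arrays.

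Dpp4, the surface protease CD26 that trims chemokines, read 81.6, 97.6 and 106 in control and 22.7, 18.0 and 28.3 in deleted arrays (log2 change -1.51 ± 0.11, limma adjusted p = 1.24e-05). Camk1d, a calcium-dependent kinase, fell by 1.14 ± 0.14 on the log2 scale, and Il17rb, a subunit of the IL-25 receptor, by 1.12 ± 0.16. Fcna, a ficolin of macrophages, fell by 1.10 ± 0.14. Of the remaining named decreases, Lipo3, Psma8, Tctex1d1 and Klhl41 changed by -1.49, -1.28, -1.10 and -1.09. Igha, an immunoglobulin constant region, read 205, 137 and 81.1 against 67.0, 41.3 and 29.0, and its call was lost without deleted array 3 (adjusted p = 0.0555). The other 14 decreases remained called without any 1 array. In the fit to 12 arrays, Dpp4, Lipo3, Pdgfrb and Tctex1d1 lost their calls.

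Genes that define stem cell identity and targets of MLL fusions were more often called lower than higher. Of 27 tested genes of the stem cell list, 11 fell and 3 rose (51.9% beside 8.27% of all genes). Since the lists were chosen with earlier results known, such shares are a description and no independent support. The median log2 change was -0.14 beside -0.01 for all genes. Of 24 tested MLL fusion targets, 11 fell and 0 rose by the limma call, 13 fell and 1 rose at an unadjusted p under 0.05 (58.3% beside 21.9% of all genes), and the median was -0.17. The summed intensity of the stem cell list was 8266 to 9524 in control and 6780 to 7185 in deleted arrays. The lists share members, Flt3, Meis1, Myb, Eya1 and Sox4 among those that fell.

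Without control array 3 the stem cell list had 7 lower calls, and without deleted array 1 the MLL target list had 7. Whichever 1 array was left out, 7 lower calls remained in each list, together with 2 higher calls in the stem cell list. In the fit to 12 arrays 2 lower and 1 higher call remained in the stem cell list and 1 lower call among MLL targets. With averaged probe sets, the stem cell list had 8 lower and 2 higher calls and the MLL target list 7 lower calls.

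Mycn, a MYC family transcription factor, read 2450, 1503 and 2141 in control and 1191, 1048 and 1159 in deleted arrays. The lowest control lay above the highest deleted array (log2 change -0.81 ± 0.14, limma adjusted p = 0.00368), but a dimmer Mycn probe set changed by 0.06, and averaging the probe sets or robust moderation ended the call. Sox4, a transcription factor of progenitors, read 166, 113 and 130 against 78.1, 58.7 and 82.2 (log2 change -0.77 ± 0.13, adjusted p = 0.00444), a call also ended by averaging probe sets. Myb, a master regulator of progenitor growth, read 2552, 2533 and 2707 against 2003, 2225 and 2229 (log2 change -0.27 ± 0.053). That is a small decrease in a very bright gene, and it too lost its call when probe sets were averaged.

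Flt3, the cytokine receptor tyrosine kinase, read 51.6, 41.4 and 43.5 in control and 28.7, 27.3 and 29.9 in deleted arrays (log2 change -0.46 ± 0.082, adjusted p = 0.00537). The homeobox cofactor Pbx3 fell by 0.29 ± 0.055 on the log2 scale, the transcriptional cofactor Eya1 by 0.54, the basic helix-loop-helix factor Tcf4 by 0.43 ± 0.057 and the fatty acid elongase Elovl7 by 0.61 ± 0.11. These calls and that of the surface receptor Cd48 (-0.40) remained without any 1 array. Meis1, the HOX cofactor, read 144, 124 and 153 against 94.8, 103 and 108 (log2 change -0.41 ± 0.086, adjusted p = 0.0135). Its groups were apart, and its call was lost without control array 3 or deleted array 1 (adjusted p = 0.0512 and 0.0601). Cd34 (-0.44) lost its call without control array 3 (adjusted p = 0.0684). Hoxa5 read 86.8, 57.6 and 82.2 against 44.7, 52.4 and 49.5, and its call was lost without any of 5 arrays, all except control array 2 (adjusted p from 0.0657 to 0.112). No other HOXA gene was among the called MLL targets.

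Not all members followed. Prdm16, a chromatin regulator of stem cell upkeep, read 6.90, 5.46 and 7.23 in control and 15.7, 17.8 and 18.5 in deleted arrays (log2 change 0.57 ± 0.051, limma adjusted p = 5.57e-05). Cdkn1c, the CDK inhibitor p57, read 10.6, 9.13 and 10.7 against 15.9, 20.8 and 16.3 (log2 change 0.36 ± 0.063, adjusted p = 0.00445). Both rose in all 3 deleted arrays at low intensity. Kit, the stem cell factor receptor, read 232, 160 and 192 in control and 137, 157 and 135 in deleted arrays and missed the threshold (log2 difference -0.39 ± 0.11, adjusted p = 0.0554). Ptprc, the leukocyte antigen CD45, read 1555 ± 93.4 against 1583 ± 73.3 (log2 difference 0.03, adjusted p = 0.84).

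**Figure D3:**
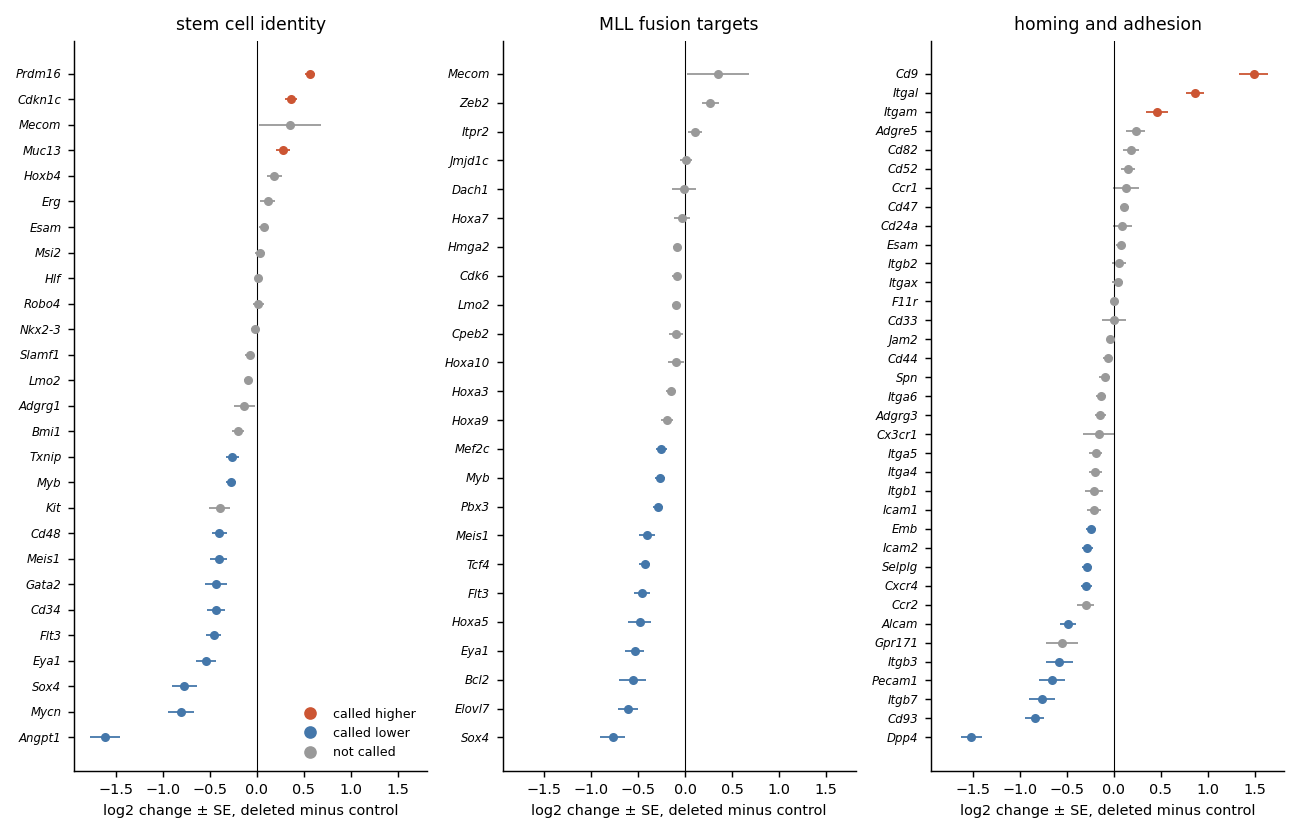
Log2 change (deleted minus control, with SE of the moderated fit, n = 3 arrays a group) of every tested gene of the stem cell, MLL fusion target and homing and adhesion lists. Coloured points were called; 11 stem cell genes and 11 MLL targets lie to the left with a lower call, and 10 adhesion genes do.

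Among 63 tested hematopoietic transcription factors, 6 rose and 8 fell (22.2% beside 8.27% of all genes), with a median change of -0.03. Ets1, a founding ETS factor, read 52.1, 63.1 and 46.4 in control and 152, 129 and 110 in deleted arrays (log2 change 1.06 ± 0.12, limma adjusted p = 0.000218). Id2, an inhibitor of basic helix-loop-helix factors, read 66.9, 85.8 and 58.0 against 141, 124 and 137 (log2 change 0.81 ± 0.11). Both were higher in every deleted array. Klf6 rose by 0.93 ± 0.14, E2f2 by 0.50 ± 0.079 and Cebpd, a granulocyte-macrophage factor, by 0.43 ± 0.078. The lymphoid zinc finger factor Ikzf3 read 24.8, 59.7 and 35.2 against 13.2, 9.14 and 15.9 (log2 change -0.92 ± 0.18, adjusted p = 0.00783), a call that robust moderation ended. Its relative Ikzf2 fell by 0.28 ± 0.053, a call lost when probe sets were averaged. Without deleted array 1 or without deleted array 2, 4 lower calls were left; 5 higher and 4 lower calls remained whichever 1 array was left out, and 3 higher and 1 lower in the fit to 12 arrays.

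Genes of homing and adhesion moved in both directions, with more decreases. Of 36 tested, 3 rose and 10 fell, or 36.1% beside 8.27% of all genes (median -0.14). Itgal, the alpha chain of the integrin LFA-1, read 229, 174 and 205 in control and 356, 419 and 369 in deleted arrays (log2 change 0.87 ± 0.094, limma adjusted p = 0.000208). Cd93, a lectin-like receptor of progenitors and endothelium, read 709, 646 and 669 against 392, 303 and 423 (log2 change -0.84 ± 0.10). The groups were wide apart in both. Itgb7, an integrin beta chain of gut homing, read 108, 101 and 100 against 64.1, 38.1 and 63.96 (log2 change -0.76 ± 0.13). Alcam fell by 0.49 ± 0.083, Pecam1 by 0.65 ± 0.14 and Selplg, the P-selectin ligand, by 0.29 ± 0.052.

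Cxcr4, the receptor for CXCL12 that retains cells in marrow, read 530, 576 and 600 in control and 463, 455 and 465 in deleted arrays (log2 change -0.29 ± 0.059, adjusted p = 0.0108). Every deleted array was below every control, and the call was lost without deleted array 2 (adjusted p = 0.0512). The adhesion ligand Icam2 lost its call in the same way (adjusted p = 0.0612). Without deleted array 2 the list had 6 lower calls, and 2 higher and 6 lower remained whichever 1 array was left out. In the fit to 12 arrays, 2 higher and 1 lower did.

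Some markers of eosinophils were lower, while other defining ones were at the floor. Of 14 tested genes of eosinophils, basophils and mast cells, 5 fell and 1 rose (42.9% beside 8.27% of all genes). The list's sum was 1773 to 1876 in control and 772 to 1012 in deleted arrays. Besides Prg2, Prg3 and Il17rb, Siglecf, the eosinophil sialic acid receptor, read 166, 224 and 200 against 101, 64.3 and 132 (log2 change -0.92 ± 0.18, adjusted p = 0.00887), a call that robust moderation ended. Il18r1 rose from 6.79 ± 0.928 to 14.8 ± 2.86. The defining genes Epx, Il5ra and Ccr3 read at most 6.03, 5.00 and 4.25 on any array, and 14 of 25 genes of the list stayed under 16 on all arrays. Cpa3, the mast cell carboxypeptidase, read 282 to 363 in control and 236 to 308 in deleted arrays, which overlapped. The fifth decrease, Itga2b, lost its call whichever 1 array was left out, no increase and 3 decreases were called in the fit to 12 arrays, and the single increase became 2 without control array 1.

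Many macrophage markers fell while lysozyme genes rose. Of 39 tested monocyte and macrophage genes, 14 fell and 2 rose (41% beside 8.27% of all genes), with a median change of -0.29. The 3 chains of the complement component C1q, made by tissue macrophages, fell together. C1qc read 46.0, 30.04 and 39.2 in control and 11.8, 14.5 and 17.2 in deleted arrays (log2 change -0.83 ± 0.11, limma adjusted p = 0.000651). C1qb read 67.2, 46.5 and 36.5 against 20.4, 21.4 and 21.3 (log2 change -0.81 ± 0.13), and C1qa read 50.0, 34.4 and 41.9 against 24.5, 22.5 and 24.3 (log2 change -0.54 ± 0.096). In all 3 genes the deleted arrays lay below the controls; the promoters of C1qb and C1qc are shown above.

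The scavenger receptor Cd163 read 15.3, 12.6 and 12.2 against 6.87, 7.18 and 5.89, and the mannose receptor Mrc1 read 24.2, 18.9 and 18.3 against 8.06, 8.71 and 8.39. Both were near the floor of the array after deletion. The brighter Adgre1, which encodes F4/80, read 138, 185 and 163 against 97.1, 76.7 and 99.1 (log2 change -0.73 ± 0.11). Vcam1 fell by 0.73 ± 0.11, the macrophage-secreted Cd5l by 0.80 ± 0.12, the receptor kinase Axl by 0.46 ± 0.081 and Ms4a4c by 0.64 ± 0.10. Lyz2 read 1072, 1225 and 868 in control and 2691, 2433 and 2233 in deleted arrays (log2 change 1.21 ± 0.11), and Lyz1 rose by 0.67 ± 0.055. The lysozyme genes are near copies, and probe signal shared between them was not tested.

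The list's summed intensity was 11378 to 12620 in control and 13035 to 14519 in deleted arrays, higher despite the 14 decreases, since the sum holds the bright lysozyme genes. Csf1r, the receptor for the macrophage growth factor, read 1249 to 1478 in control and 1207 to 1283 in deleted arrays, which overlapped. The defining tissue macrophage genes Timd4, Spic and Marco read at most 5.34, 8.18 and 11.3. All but 2 of the 14 decreases, Cd68 and Mpeg1, remained called without any 1 array, and 7 remained in the fit to 12 arrays, in which neither lysozyme gene was called.

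Antigen presentation and B lineage genes also changed, mostly downward. Of 21 tested dendritic cell and MHC class II genes, 5 fell and 2 rose, or 33.3% beside 8.27% of all genes. The sum of the list was 3324 to 3684 in control and 2743 to 3122 in deleted arrays, without overlap. H2-DMa, which loads peptides on MHC class II, read 177, 220 and 167 in control and 121, 105 and 114 in deleted arrays (log2 change -0.65 ± 0.098, adjusted p = 0.00177). The lectin Cd209a fell by 0.59 ± 0.11. The class II chains H2-Aa and H2-Ab1 were not called and read 208 to 269 and 82.0 to 107 in control, and 162 to 237 and 55.9 to 79.7 in deleted arrays. Of 14 tested B lineage genes, 3 fell and 0 rose by the limma call (21.4%), 6 fell and 1 rose at an unadjusted p under 0.05, and the list's sum was 1652 to 1865 in control and 1367 to 1532 in deleted arrays. Cd79b, a signalling chain of the B cell receptor, read 214, 210 and 205 against 168, 134 and 165 (log2 change -0.40 ± 0.083, adjusted p = 0.0123). Its partner chain Cd79a lay the other way near the floor, at 16.05, 10.2 and 14.5 in control and 16.1, 21.7 and 19.7 in deleted arrays, and missed the threshold (log2 difference 0.25 ± 0.083, adjusted p = 0.0917). Ighm and Jchain were also called lower, but lost their calls without certain arrays: Jchain without deleted array 3, and Ighm without control array 1 or 3 or deleted array 2 or 3. Leaving out control array 2 gave 5 lower B lineage calls and leaving out deleted array 3 gave 1; without control array 1 there was 1 higher call. In the fit to 12 arrays, 1 B lineage gene was called lower, and 1 dendritic cell gene higher and 2 lower.

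Several innate receptors and lectins rose. Of 28 tested, 8 rose and 1, Cd209a, fell (32.1% beside 8.27% of all genes), while the median change of the list was -0.01. Clec5a, an activating C-type lectin of myeloid cells, read 19.2, 26.4 and 8.96 in control and 150, 99.2 and 96.7 in deleted arrays (log2 change 1.95 ± 0.19, limma adjusted p = 8.53e-05). Pilra, an inhibitory paired receptor, read 60.3, 81.5 and 48.4 against 214, 146 and 149 (log2 change 1.23 ± 0.16), and its activating partner Pilrb1 rose by 0.89 ± 0.16. Every deleted array was above the controls in these genes. Trem1, an amplifier of inflammatory signals, rose by 0.73 ± 0.14 and Clec4d by 0.43 ± 0.058. C5ar1, the receptor for complement C5a, read 4.45, 4.34 and 5.00 against 7.98, 9.12 and 8.12, a change close to the floor. Of the 8 increases, 6 remained without any 1 array, and 3 remained in the fit to 12 arrays. Without control array 1, 2 genes were called lower.

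Of 34 tested NF-κB and inflammation genes, 2 rose and 2 fell, or 11.8% beside 8.27% of all genes. Tlr4, the endotoxin receptor, read 10.3, 12.3 and 11.04 in control and 24.9, 29.99 and 25.8 in deleted arrays (log2 change 0.66 ± 0.064, limma adjusted p = 9.9e-05), and Il1rn, the interleukin-1 receptor antagonist, rose by 0.54 ± 0.088. Tnfaip3, which ends NF-κB signalling, read 121, 147 and 130 against 99.6, 85.1 and 94.3 (log2 change -0.45 ± 0.086). The lower count was 1 without control array 2 or 3 or deleted array 2 or 3. Of 36 tested genes of the WNT, Notch and TGF-beta pathways, 1 rose and 2 fell, 8.3% as among all genes. The TGF-beta ligand Tgfb1 fell by 0.38 ± 0.068 and the transducer Smad3 by 0.48 ± 0.091. Both calls were lost when probe sets were averaged, and in the fit to 12 arrays 1 NF-κB list member, Il1rn, stayed called.

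Several genes of leukotriene synthesis rose, and a prostaglandin-degrading enzyme fell. Of 19 tested eicosanoid genes, 6 rose and 2 fell (42.1% beside 8.27% of all genes). Alox5, the enzyme that starts leukotriene synthesis, read 44.3, 53.7 and 47.8 in control and 102, 90.1 and 101 in deleted arrays (log2 change 0.82 ± 0.086, limma adjusted p = 0.000168). Its activating protein Alox5ap read 1065, 1199 and 1083 against 1483, 1440 and 1348 (log2 change 0.35 ± 0.059). The groups did not overlap for either. Ptgr1, which inactivates leukotriene B and prostaglandins, rose by 0.42 ± 0.072, and Ptger2, a receptor for prostaglandin E, read 5.30, 6.95 and 5.83 against 17.9, 19.3 and 15.6 (log2 change 0.61 ± 0.053). The other increases, Lta4h and Pla2g4a, were lost without several arrays: Lta4h without control array 1 or 3 or deleted array 1 or 2, and Pla2g4a without any of the 6. Of the decreases, Hpgd remained called throughout and Ptger4 was lost without deleted array 2 (adjusted p = 0.0655), which left 1 lower call. Alox5 and Hpgd stayed called in the fit to 12 arrays.

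Genes of the actin cytoskeleton, a process linked to mTORC2, gave 6 higher and 3 lower calls among 49 tested. That was 18.4% beside 8.27% of all genes, with a median change of 0.03. Vcl, the adhesion linker vinculin, read 276, 323 and 260 in control and 510, 501 and 438 in deleted arrays (log2 change 0.73 ± 0.085, limma adjusted p = 0.00034), and the severing protein Gsn rose by 0.57 ± 0.08. With Actn1, all were higher in every deleted array. Tpm4, a tropomyosin, read 221, 199 and 187 against 125, 85.6 and 118 (log2 change -0.81 ± 0.12), and the GTPase Rhoq fell by 0.49 ± 0.092. Actb and Myh9 were called with small changes of 0.16 and 0.19 and lost their calls without several arrays, among them control array 3 and each deleted array. The third decrease was Rhob, which lost its call without deleted array 1 or 3. The fit to 12 arrays left 2 higher calls, Actn1 and Rhou. Rhou rose by 1.31 in log2 (limma adjusted p = 0.000268), a call that also remained without any 1 array.

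Cell cycle genes had mostly small positive changes. Of 48 tested G2/M and mitosis genes, 14 rose and 0 fell by the limma call, 31 rose and 0 fell at an unadjusted p under 0.05, 47 had a positive change and the median was 0.23. Of 47 G1/S and replication genes, 6 rose and 0 fell by the limma call, 17 rose and 0 fell at an unadjusted p under 0.05, 41 were positive and the median was 0.11. Among all genes, 9.51% were higher at an unadjusted p under 0.05, beside 64.6% of the G2/M and 36.2% of the G1/S genes. Rrm2, the ribonucleotide reductase subunit of S phase, read 594, 522 and 556 in control and 882, 846 and 806 in deleted arrays (log2 change 0.59 ± 0.061, limma adjusted p = 0.000161). Cdc20, an activator of the anaphase-promoting complex, read 457, 342 and 421 against 562, 588 and 583 (log2 change 0.50 ± 0.088). Both were above the controls in all deleted arrays. Plk4, the centriole duplication kinase, rose by 0.34 ± 0.06, Spc25 of the kinetochore by 0.38 ± 0.072, the checkpoint protein Mad2l1 by 0.29 ± 0.058 and the replication licensing inhibitor Gmnn by 0.27 ± 0.05. Asf1b, a histone chaperone of dividing cells, rose by 0.65 ± 0.063.

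The counts depended on single arrays while the medians stayed positive. G2/M calls numbered 7 without control array 2, 5 without control array 3, 4 without deleted array 2 and 9 without deleted array 3. G1/S calls numbered 10 without control array 1 and 2 without control array 2 or 3 or deleted array 2 or 3. The medians ranged from 0.17 to 0.26 for G2/M and from 0.07 to 0.13 for G1/S over the arrays left out. The fit to 12 arrays called 0 G2/M genes and 1 G1/S gene.

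Regulators of quiescence gave no common direction. Of 29 tested CDK inhibitors and quiescence genes, 3 rose and 2 fell (17.2% beside 8.27% of all genes), with a median of -0.015. Besides Cdkn1c, Cdkn2d, the CDK inhibitor p19, read 216, 225 and 185 in control and 318, 282 and 275 in deleted arrays (log2 change 0.46 ± 0.083, limma adjusted p = 0.00561). Foxo3, a transcription factor restrained by AKT, read 128, 139 and 139 against 101, 87.8 and 99.3 (log2 change -0.43 ± 0.077, adjusted p = 0.00501). The lower count was 1 without control array 1 or 3 or deleted array 1 or 2. The sign of this median turned positive without control array 1, 2 or 3 or deleted array 2, and the fit to 12 arrays called 0 of these genes.

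Genes of the PI3K and AKT axis, which includes kinases phosphorylated by mTORC2, gave calls in both directions. Of 32 tested genes of AKT, related kinases and PI3K, 1 rose and 4 fell (15.6% beside 8.27% of all genes), and 11 passed at an unadjusted p under 0.05 (34.4% beside 21.9%). Of 28 FOXO targets, 1 rose and 3 fell (14.3%), and 8 passed at an unadjusted p under 0.05 (28.6%). The median log2 changes of the lists were -0.02 and -0.03. Pik3r5, the regulatory subunit of the PI3K gamma of myeloid cells, read 29.4, 28.5 and 23.6 in control and 45.8, 51.2 and 41.1 in deleted arrays (log2 change 0.52 ± 0.088, limma adjusted p = 0.00368). Without deleted array 1, 2 genes rose. The 4 decreases did not all last: whichever array other than control array 1 was left out, 1 lower call was left. Sgk3, a kinase of the SGK family, read 609, 711 and 805 against 518, 540 and 518 and lost its call without deleted array 3 (adjusted p = 0.0507). Among FOXO targets, Klf6 rose and Sesn1, a sestrin that restrains mTORC1, read 343, 352 and 372 against 261, 240 and 274 (log2 change -0.44 ± 0.067), a call lost when probe sets were averaged. Leaving out control array 1 gave 2 higher FOXO target calls. The fit to 12 arrays called 0 genes of either list.

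Lysosomal genes fell in part. Of 42 tested lysosome and autophagy genes, 9 fell and 0 rose by the limma call, 11 fell and 2 rose at an unadjusted p under 0.05 (31% beside 21.9% of all genes), and the median was -0.07. Ctsh, a cathepsin, read 1015, 1077 and 930 in control and 659, 489 and 647 in deleted arrays (log2 change -0.75 ± 0.10, limma adjusted p = 0.000886). Psap, the precursor of the saposins, read 587, 552 and 541 against 428, 443 and 425 (log2 change -0.36 ± 0.056). Each lay lower in all deleted arrays. Ctsb (-0.30), Ctsa (-0.30) and the ganglioside activator Gm2a (-0.41) also fell, and lost their calls when probe sets were averaged. Without deleted array 2, 5 lower calls were left, and these 5 remained whichever 1 array was left out. The fit to 12 arrays called 0 of them by limma. The higher count was 1 without control array 2.

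The Myc and ribosome biogenesis, oxidative phosphorylation, mitochondrial ribosome, heat shock and fatty acid oxidation lists gave 0 or 1 call each. Of 48 Myc and ribosome biogenesis genes, 0 were called by limma, 3 rose and 10 fell at an unadjusted p under 0.05 (27.1% beside 21.9% of all genes), and the median was -0.08; without control array 3 or deleted array 2, 1 was called lower. Of 68 oxidative phosphorylation genes 1 was called, Ndufv3 (0.27), which was lost without deleted array 1 or 2, and the median was 0.01; without control array 1, 2 were called. Of 59 mitochondrial ribosome genes 0 were called by limma and 6 had an unadjusted p under 0.05; without control array 1, 2 were called higher. Of 28 heat shock genes 0 were called by limma, 6 fell at an unadjusted p under 0.05, and 1 was called lower without control array 1. Of 25 fatty acid oxidation genes 0 were called by limma and 2 had an unadjusted p under 0.05. By the limma call the shares of these 5 lists lie below the 8.27% of all genes. At an unadjusted p under 0.05, oxidative phosphorylation (10.3%), mitochondrial ribosome (10.2%) and fatty acid oxidation genes (8%) lie below the 21.9% of all genes, heat shock genes are close to it (21.4%) and the Myc list is above it.

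Of the cytosolic ribosomal protein genes only Rps25 was called, while most had small negative changes. Rps25 read 346, 340 and 325 in control and 231, 239 and 250 in deleted arrays (log2 change -0.46 ± 0.061, limma adjusted p = 0.000779). It was the 1 gene called of 40, or 2.5% beside 8.27% of all genes, and without control array 3 another was called higher. The next by p, Rpl41, changed by -0.12 (limma adjusted p = 0.0951). Of the 40 genes, 33 had a negative change, and the median was -0.055. In 17 of them all 3 deleted arrays lay below all controls, and in 0 above, beside 1923 and 1399 of all 12214 genes. At an unadjusted limma p under 0.05, 5 fell and 0 rose (12.5% beside 21.9% of all genes). The Rps25 call remained without any 1 array and in the fit to 12 arrays.

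**Figure D4:**
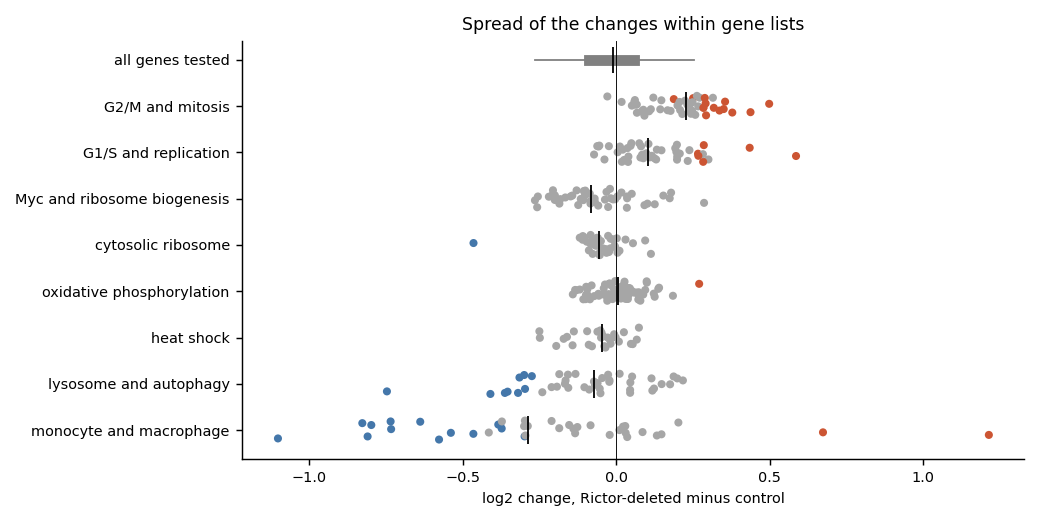
Log2 change (deleted minus control) of each tested gene of 8 lists, 1 point per gene with vertical scatter added for legibility, coloured orange when called higher and blue when called lower. The black tick is the median; for all genes the thick bar spans the quartiles and the thin line the 5th to the 95th percentile. G2/M genes lie to the right, with a median of 0.23, and macrophage genes to the left, with a median of -0.29.

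Some metabolic and stress genes changed. Among 32 glycolysis and pentose phosphate genes, 4 rose and 1 fell (15.6% beside 8.27% of all genes), with a median of 0.02. Besides Slc2a3, Rpia of the pentose phosphate pathway rose by 0.30 ± 0.055, while Hk1 and Pfkfb4 lost their calls without several arrays. Without control array 3 or deleted array 2, 2 higher calls were left. The decrease, Minpp1 (-0.31), stayed called only when control array 2 was the array left out. Dck, the deoxycytidine kinase, read 194, 163 and 165 in control and 252, 239 and 250 in deleted arrays (log2 change 0.47 ± 0.076, adjusted p = 0.00264). Asns, the asparagine synthetase and an ATF4 target, read 38.1, 42.8 and 49.3 against 73.9, 93.1 and 70.4 (log2 change 0.68 ± 0.11, limma adjusted p = 0.00241). Chac1, another ATF4 target, rose by 0.55 ± 0.09, whereas Ddit3 had a log2 difference of -0.30 (adjusted p = 0.0503). Of 34 ATF4 targets, 2 rose and 1 fell (8.8% beside 8.27% of all genes), and 4 rose without deleted array 3. At an unadjusted limma p under 0.05, 7 of them passed, or 20.6% beside 21.9% of all genes. The lower call, Slc7a5, was lost without control array 1 or 3 or deleted array 1 or 3. In the fit to 12 arrays Slc2a3 and Asns stayed called, and Chac1 and Rpia did not.

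Genes of the unfolded protein response gave 2 higher and 3 lower calls among 29 tested (17.2% beside 8.27% of all genes). Ern1, which encodes IRE1 alpha, read 404, 422 and 425 in control and 254, 270 and 287 in deleted arrays (log2 change -0.59 ± 0.063, limma adjusted p = 0.000176), a call lost when probe sets were averaged. Atf6 read 118, 121 and 121 against 80.4, 90.3 and 91.3 (log2 change -0.40 ± 0.074). In contrast Xbp1, the target of IRE1 alpha, rose by 0.25 ± 0.053, a call lost without deleted array 1 or 2 (adjusted p = 0.0584 at most). The higher count was 1 without control array 2 or 3 and 0 without deleted array 1 or 2, and the fit to 12 arrays called 1 gene, Ern1. Antioxidant genes moved both ways, with 4 of 32 higher and 4 lower (25% beside 8.27% of all genes). The largest change of the list was that of Mgst2, a microsomal glutathione transferase that is also in the mature neutrophil list, which read 75.5, 47.3 and 34.7 in control and 499, 371 and 346 in deleted arrays (log2 change 2.65 ± 0.19, limma adjusted p = 7.95e-06). Its call remained without any 1 array and in the fit to 12 arrays. Gstm1, a glutathione transferase of the primary granule list too, rose by 0.52 ± 0.11, a call lost without control array 3 (adjusted p = 0.0553). Nnt, the mitochondrial transhydrogenase, read 586, 546 and 639 against 387, 408 and 378 (log2 change -0.57 ± 0.066). The glutathione transferase Gstp1 fell by 0.43 ± 0.074 and Sod1 by 0.42 ± 0.073. Averaging probe sets ended the Sod1 call. The higher count was 2 without control array 3 or deleted array 1, and the fit to 12 arrays called 2 higher and 3 lower.

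**Figure D5:**
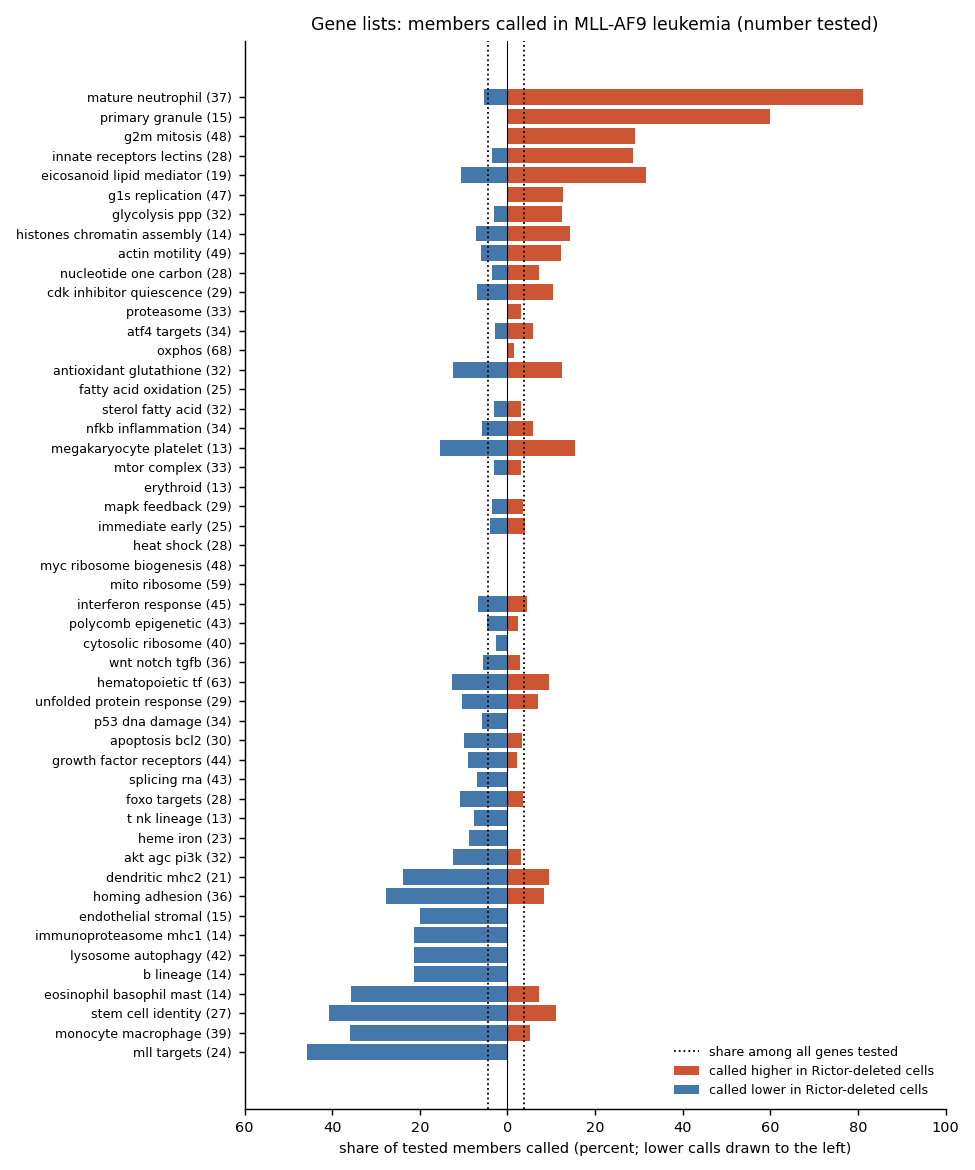
Share of the tested members of each of 50 gene lists called higher (right) or lower (left) in Rictor-deleted cells, with the number tested in brackets. The dotted lines mark the shares over all 12214 genes, 3.86% higher and 4.4% lower. The lists were chosen with earlier results of these data known. The lists of neutrophil genes, G2/M genes, innate receptors and eicosanoid genes extend farthest to the right, and MLL targets, stem cell, macrophage and eosinophil genes to the left.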

How the data were processed

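Total RNA (7 µg a sample, Trizol) was converted to biotin-labelled cRNA and hybridised to Affymetrix arrays, per the labels' protocols. The authors deposited linear intensity values, 1 per probe set and array; of their background correction and normalization, the method was not given in the sources used here. Of 45101 probe sets, 34958 had 1 gene symbol, 932 several and 9211 none; 18033 of 18195 genes matched RefSeq, assembly GRCm38.p6. Each gene took its brightest probe set over the 6 arrays; 626 genes on X or Y were left out, as were 5355 whose mean over the 6 arrays was below 6.106 (40th percentile over probe sets). Values were log2(intensity + 16). limma 3.58.1 (R 4.3.3; lmFit, eBayes with a trend) gave 2-sided p-values, adjusted by Benjamini-Hochberg over 12214 genes and called under 0.05; SEs are those of this fit, and the exact permutation test of 3 against 3 arrays was not used. The number of arrays, 3 a group, limits the precision. The fit was tested on simulated arrays in which 200 of 12214 genes were changed by known amounts. It recovered 40% of changes of 0.25 in log2 and 96% of those of 0.5, and 5.62% of its 178 calls were false. The simulated noise was independent between genes and held no array or sex effect. These rates therefore need not hold for the real arrays. Figures were drawn with matplotlib 3.10.9, tables with pandas 2.3.3 under Python 3.11.15.

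The members and the 50 gene lists were chosen with earlier results of these data known. Named genes were the 15 largest increases and decreases with groups that did not overlap (neutrophil and primary granule lists and clone names left out), the 4 lowest p-values of each list, called list members, called neighbours of Rictor, the mTORC2 subunits, Kit and Ptprc. Cell type markers at the floor, Xist and the Y-linked genes stand outside the tests. Alternatives were other normalizations, filters, pseudocounts and moderation, averaged probe sets, X and Y genes kept, all 12 arrays, a replicate block, a stricter threshold, and leaving out each array. Replicate numbers did not pair the arrays: deviations of same-numbered arrays from their group means correlated at -0.09, -0.04 and 0.03. Of 532 called genes with a further probe set, 414 had the same sign in all of them and 3 had one called the other way.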

Additional observations from a re-analysis of the deposited data

Results flagged for a closer look

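Transcripts of chromosome Y, outside the genes tested, gave signal in the Rictor-deleted arrays above that of the controls. Eif2s3y had a mean intensity of 162 ± 20.9 (SD, n = 3) in deleted and 4.97 ± 2.46 in control arrays. Kdm5d had 58.7 ± 10.7 against 3.94 ± 0.837, and Uty had 22.7 ± 5.89 against 5.00 ± 0.779. In each gene all 3 deleted arrays lay above all 3 controls. Of the other Y-linked genes read, Orly and Sry had overlapping groups. Xist, on chromosome X, had 98.5 ± 94.96 in deleted and 2387 ± 48.5 in control arrays.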

How the results depend on the processing

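The count of called genes, 1010 (472 higher and 538 lower), stayed within 1.5 times under 12 of 14 other settings of the processing, from 778 with averaged probe sets to 1045 with X and Y genes kept. The exceptions were the fit to all 12 arrays, with 186 calls (129 higher, 57 lower), where both leukemias share the spread, and an adjusted p under 0.01, with 467 (267 higher, 200 lower). The higher share was 46.7% in the main fit and 69.4% and 57.2% in these. Leaving out 1 array gave 570 to 990 calls, 304 to 494 higher and 266 to 496 lower; the cause was not tested. With the replicate number as a block, 923 genes were called, 853 of them among the 1010. No named gene that was called changed direction under these alternatives. Averaging probe sets ended 59 of 254 named calls, and 158 of these calls remained without any 1 array. Signal near the floor of the array limits the dim genes, such as Prdm16 and C5ar1.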
